A study of Mus musculus with 4 samples.

Results

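Among the genomic regions bound by phosphorylated CREB in MC3T3-E1 cells, 3419 were called in both forskolin libraries and in exactly 1 of the 2 vehicle libraries. They made up 12.1% of the 28335 regions obtained by merging the 4 peak lists (Wilson 95% interval 11.7 to 12.4). Peaks were merged where they shared at least 1 bp, in build mm9. The regions were chosen by the peak calls themselves, so their presence in each list and their scores are a description and were not tested. Of the 3419 regions, 3016 had their vehicle peak in replicate 1 and 403 in replicate 2. For comparison, 5187 regions had a peak in both forskolin and neither vehicle library (forskolin-only), and 8930 had a peak in all 4 libraries. The mirror case, both vehicle libraries and exactly 1 forskolin library, held 397 regions (1.40%). The forskolin lists were longer than the vehicle lists. With every list cut to the same number of top-scoring peaks, the count of 3419 became 875. The effect of list length on the mirror count of 397 was not tested.

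MC3T3-E1 is an established mouse pre-osteoblast line. Its cells had been exposed for 1 h to 100 nM forskolin or to DMSO alone, and each treatment was sampled in 2 libraries that the series text calls biological replicates. Chromatin was precipitated with an antibody against CREB carrying a phosphate at serine 133, and the DNA was sequenced. The vehicle lists held 14686 and 10180 peaks and the forskolin lists 25566 and 19371. Each peak has a position and a deposited score whose scale is not stated, and all peaks of a list have the same width (301 to 311 bp). Read depth is unknown, and low scores fell on steps of 0.688 in forskolin replicate 2 against 0.224 to 0.239 in the other lists.

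Forskolin activates adenylyl cyclase, which makes cyclic AMP (cAMP). Cyclic AMP releases the catalytic subunits of protein kinase A, and these phosphorylate CREB, a basic leucine zipper transcription factor, at serine 133. Phosphorylated CREB recruits the coactivators CBP and p300. CREB binds the cAMP response element (CRE), whose palindrome is TGACGTCA and whose core, TGACG, is also bound. AP-1, the dimers of Fos and Jun proteins, binds the related letters TGAGTCA, and RUNX factors, among them the osteoblast regulator Runx2, bind TGTGGT. In osteoblasts the cAMP pathway acts downstream of the parathyroid hormone receptor.

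The sequences below show the motif types that the comparisons turn on. They belong to the highest-ranked regions of the class with a full CRE, with a CRE core alone, or with an AP-1 match and no core, apart from windows that touch an annotated untranslated region, with that of Per1 added. The first 5 lie within 1 kb of a transcription start site (TSS), the next 5 over 10 kb from any, and Per1 in between. Capitals mark the motif, with 30 bases of the NCBIM37 genome (the assembly named mm9 elsewhere) to either side, read 5′ to 3′ on the strand that holds the motif letters.
Hsp90ab1, chr17:45710306-45710373, plus strand: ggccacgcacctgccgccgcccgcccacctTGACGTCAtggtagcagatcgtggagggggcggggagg
Mcam, chr9:43943975-43944042, plus strand: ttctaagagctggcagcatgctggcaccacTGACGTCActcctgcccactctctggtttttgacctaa
Pabpc1, chr15:36538762-36538826, plus strand: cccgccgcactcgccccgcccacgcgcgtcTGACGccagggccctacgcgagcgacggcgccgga
Klf4, chr4:55545838-55545904, minus strand: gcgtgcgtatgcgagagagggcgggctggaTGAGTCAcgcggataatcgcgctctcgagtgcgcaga
Clk3, chr9:57613917-57613983, minus strand: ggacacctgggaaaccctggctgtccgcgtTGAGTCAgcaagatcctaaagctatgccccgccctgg
Pgpep1l, chr7:75428819-75428886, plus strand: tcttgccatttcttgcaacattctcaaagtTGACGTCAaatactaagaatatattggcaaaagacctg
Hoxb1, chr11:96270010-96270077, plus strand: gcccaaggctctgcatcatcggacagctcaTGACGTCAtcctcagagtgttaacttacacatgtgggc
Ostf1, chr19:18673646-18673710, minus strand: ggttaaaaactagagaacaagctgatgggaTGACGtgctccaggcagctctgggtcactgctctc
Dap, chr15:31174970-31175036, plus strand: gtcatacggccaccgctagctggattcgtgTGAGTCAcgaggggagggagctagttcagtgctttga
Lrrc17, chr5:21034456-21034522, minus strand: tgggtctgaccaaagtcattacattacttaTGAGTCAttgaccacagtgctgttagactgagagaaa
Per1, chr11:68910674-68910741, plus strand: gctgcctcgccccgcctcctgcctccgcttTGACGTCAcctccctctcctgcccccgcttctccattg

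The AP-1 windows come from regions with no TGACG within 100 bp of the centre. Hsp90ab1 encodes a cytosolic chaperone, Mcam a cell adhesion molecule, Pabpc1 a poly(A)-binding protein and Clk3 a kinase of splicing factors. Klf4 and Hoxb1 encode transcription factors. For the windows over 10 kb from a TSS, the gene named is only the nearest protein-coding gene.

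The regions ranked in the middle of the forskolin lists and low in the vehicle list that called them. Their median score percentile, the peak's rank by score as a percentage of its list's length with tied ranks averaged, was 53.0 in forskolin replicate 1 (quartiles 36.1 and 69.8) and 40.3 in forskolin replicate 2 (22.2 and 58.2). In the vehicle lists it was 26.6 for the 3016 regions of replicate 1 (12.1 and 41.6) and 21.2 for the 403 of replicate 2 (8.71 and 37.9). The class thus lay between its neighbours in the forskolin lists. Forskolin-only regions had medians of 44.6 and 31.9 there, and regions of all 4 libraries 77.2 and 70.4. In the vehicle lists, regions of all 4 libraries had medians of 67.3 and 55.1.

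**Figure D1:**
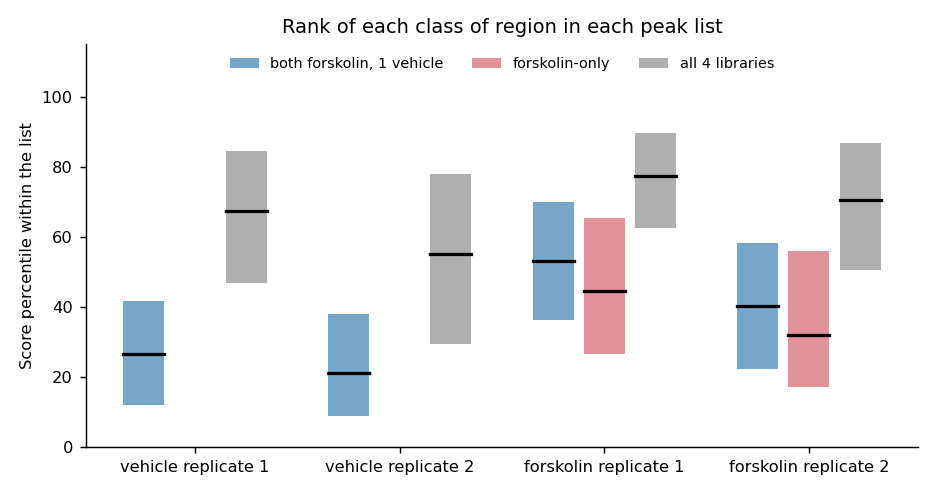
Score percentile within each deposited list, on the vertical axis, for 3 classes of region, with bars from the lower to the upper quartile and black lines at the median. Regions of both forskolin and 1 vehicle library sit lowest in the vehicle lists, with medians of 26.6 and 21.2, and between the other classes in the forskolin lists. Forskolin-only regions have no vehicle peak and so no bar there.

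In authors' score units, the 4 lists gave medians of 15.8 in forskolin replicate 1, 12.4 in forskolin replicate 2, 8.4 in vehicle replicate 1 and 7.6 in vehicle replicate 2. The highest score of any region of the class was 356.8 in a forskolin list and 44.3 in a vehicle list. Both forskolin percentiles lay above the vehicle one in 2144 of the 3419 regions (62.7%), and both lay below it in 435 (12.7%). The vehicle peak was below the 25th percentile of its list in 1688 regions (49.4%) and above the 75th percentile in 52 (1.52%). Lists of different length were ranked separately, so a higher percentile in one list than in another is no measure of a change in occupancy. Only 75 regions were above the 90th percentile in both forskolin lists.

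Most regions were unambiguous under the overlap rule. The vehicle peak shared a median of 278 bp with a forskolin peak, and it shared under 150 bp in 134 regions and under 30 bp in 12. Just outside the rule, 11 forskolin-only regions had a vehicle peak that ended within 30 bp, and 164 had one within 500 bp. Within the class, 138 regions had a peak of the other vehicle library within 500 bp. The lowest vehicle scores inside the rule were 3.7 in replicate 1 and 3.6 in replicate 2, where the lists themselves began at 1.2 and 2.7. No region held more than 1 peak of a library. The centres of the 2 forskolin peaks lay a median of 41 bp apart in the class, 40 bp in forskolin-only regions and 28 bp in regions of all 4 libraries.

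The number of regions follows from how many libraries the rule asks for. Without vehicle replicate 1 the rule gave 9319 regions, and without vehicle replicate 2 it gave 11916, because regions of all 4 libraries then meet it. It gave 875 regions when each list was cut to its 10180 top-scoring peaks, and 49.6% of these had their vehicle peak in replicate 1, against 88.2% with the full lists. Across the chromosomes, the share of all regions that belonged to the class ran from 10.5% to 15.1%, the latter on chromosome 10 (13.5 to 16.9), and that order was not tested.

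The regions lay at promoters more often than forskolin-only regions and less often than regions of all 4 libraries. Of the 3419 regions, 1108 had a protein-coding TSS within 1 kb of their centre (32.4%, Wilson 95% interval 30.9 to 34.0). The share was 12.9% (12.1 to 13.9) in forskolin-only regions and 67.0% (66.0 to 68.0) in regions of all 4 libraries. The odds ratio was 3.23 against the former (95% interval 2.89 to 3.60, adjusted p = 1.81e-102) and 0.236 against the latter (0.217 to 0.257, adjusted p = 3.69e-264, two-sided Fisher's exact tests adjusted over 24 tests). These tests treat regions as independent and compare regions within 4 libraries, so they carry no error between cultures. Without vehicle replicate 1 or 2 the first odds ratio was 7.61 or 8.13, with regions of all 4 libraries then in the class and those of the omitted library among the forskolin-only regions.

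Away from promoters, the class was split between introns and intergenic sequence. Of all 3419 regions, 1001 (29.3%) lay over 1 kb from a TSS in introns and 1237 (36.2%) over 1 kb from a TSS between genes. A further 30 at that distance were in coding exons and 40 in untranslated regions. A share of 50.6% (48.9 to 52.3) lay over 10 kb from any TSS, against 64.1% of forskolin-only regions and 23.3% of regions of all 4 libraries. The median distance to a TSS was 10477 bp, against 19419 bp and 141 bp. The median GC content within 100 bp of the centre was 52.2% in the class, 49.3% in forskolin-only regions and 59.7% in regions of all 4 libraries. Within deciles of GC content, strata chosen after seeing the data, the promoter odds ratio against forskolin-only regions was 2.07, where it had been 3.23.

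**Figure D2:**
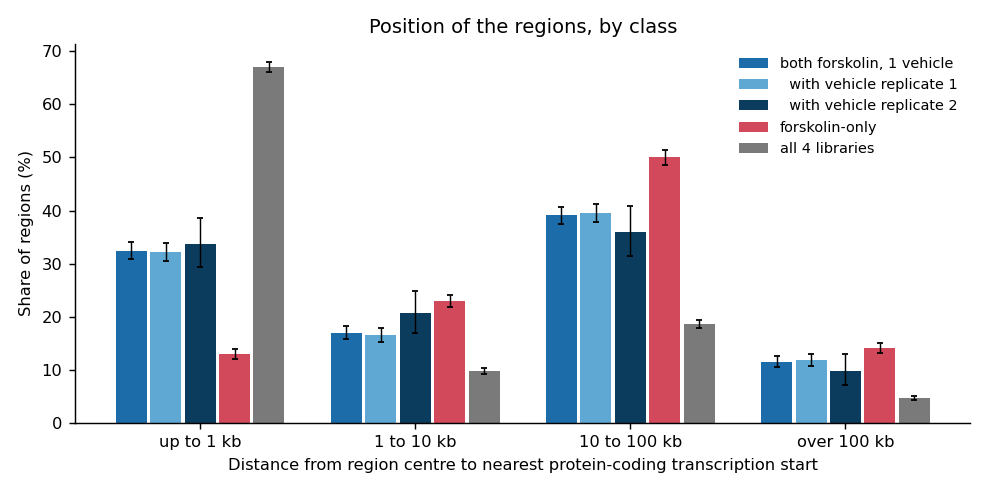
Share of regions (%) by distance from the region centre to the nearest protein-coding TSS, with Wilson 95% intervals. The bars of the class sit between those of forskolin-only regions and of regions of all 4 libraries in each distance range, for example 32.4% against 12.9% and 67.0% within 1 kb.

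Most regions of the class had no region of a given kind nearby. A region of all 4 libraries lay within 10 kb of 15.7% of the class (14.5 to 17.0), a forskolin-only region within 10 kb of 12.2% (11.1 to 13.3), and another region of the same class within 10 kb of 9.18% (8.26 to 10.2). The median distances to the nearest were 42204, 70376 and 94333 bp. For forskolin-only regions the corresponding shares were 13.7%, 16.8% and 8.31%. These shares were not tested.

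Matches to the CRE core were less common in the class than in either neighbouring class when rank in the lists was not taken into account. Within 100 bp of the centre, TGACG was present on either strand in 783 of the 3419 regions (22.9%, 21.5 to 24.3). It was present in 38.6% (37.3 to 39.9) of forskolin-only regions, 39.3% (38.3 to 40.4) of regions of all 4 libraries and 29.1% of all 28335 regions. The odds ratio was 0.473 against forskolin-only regions (0.428 to 0.521, adjusted p = 4.08e-53) and 0.458 against regions of all 4 libraries (0.418 to 0.502, adjusted p = 6.92e-68, Fisher's exact test). The latter turned to 1.09, not past the threshold, within deciles of the lower forskolin percentile, and to 1.14, past the threshold, within joint strata of that percentile and TSS distance that were chosen after seeing the data (Mantel-Haenszel). Windows of the same length 2 kb to either side held the core in 7.06% of cases, so the central share was 3.25 times the flanking one. That ratio was 6.02 in forskolin-only regions and 6.37 in regions of all 4 libraries.

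The palindrome TGACGTCA, which contains the core, was present in 77 regions (2.25%, 1.81 to 2.81). Its share was 3.59% (3.11 to 4.13) in forskolin-only regions and 6.64% (6.14 to 7.18) in regions of all 4 libraries, with odds ratios of 0.620 (0.467 to 0.815, adjusted p = 0.000584) and 0.324 (0.251 to 0.413, adjusted p = 5.5e-25, Fisher's exact test). With each list cut to its 10180 highest scores the former was 0.939 (adjusted p = 0.853, Fisher's exact test), and within deciles of the lower forskolin percentile the latter turned to 1.16, not past the threshold. Leaving out a vehicle library changed the contrast with forskolin-only regions. Regions of all 4 libraries then enter the class, and regions whose only vehicle peak was in that library become forskolin-only. For the core the odds ratio was 1.35 without vehicle replicate 1 and 0.864 without vehicle replicate 2, and for the palindrome 2.32 and 1.5. Leaving out a forskolin library left it at 0.578 and 0.551 for the core, and at 0.704 and 0.586 for the palindrome.

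AP-1 and RUNX letters put the class between its neighbours. TGAGTCA was present in 15.5% (14.4 to 16.8) of the class, 21.8% (20.7 to 23.0) of forskolin-only regions and, among regions shared by all 4 libraries, 6.17% (5.69 to 6.69). TGTGGT was present in 25.6% (24.2 to 27.1), 33.4% (32.2 to 34.7) and 15.9% (15.1 to 16.6). Odds ratios for AP-1 were 0.659 (0.587 to 0.739, adjusted p = 5.17e-13) against forskolin-only regions and 2.80 (2.46 to 3.18, adjusted p = 1.28e-54) against regions of all 4 libraries, by Fisher's exact test. For RUNX they were 0.685 (adjusted p = 1.42e-14) and 1.82 (adjusted p = 2.45e-33, Fisher's exact test). With each list cut to its 10180 highest scores the former was 0.869 and did not pass (adjusted p = 0.17, Fisher's exact test). Within 3 strata of TSS distance the RUNX odds ratio against regions of all 4 libraries was 1.08 by the Mantel-Haenszel method and did not pass the threshold, and the AP-1 one was 1.64. Against forskolin-only regions these strata gave 0.839 for RUNX and 0.801 for AP-1, and both passed the threshold. Without vehicle replicate 1 or 2 the odds ratios against forskolin-only regions were 0.266 and 0.372 for AP-1 and 0.437 and 0.463 for RUNX.

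Letters common at promoters were ordered as the promoter share was. The GC box GGGCGG, bound by Sp1 family factors, was present in 22.7% (21.4 to 24.2) of the class, 9.79% (9.01 to 10.6) of forskolin-only regions and, among regions shared by all 4 libraries, 39.1% (38.1 to 40.1). The ETS letters CCGGAAG were present in 5.24%, 1.47% and 14.7%, with odds ratios of 3.71 (2.81 to 4.94) and 0.321 (0.272 to 0.378). Within 3 strata of TSS distance the ETS odds ratios were 2.43 and 0.553 by the Mantel-Haenszel method. Those of the GC box were 1.74 and 0.853 in these strata, where they had been 2.71 and 0.458. CCAAT, the letters bound by NF-Y, was present in 24.2%, 23.2% and 31.7%, and only the contrast with regions of all 4 libraries passed the threshold (odds ratio 0.686, 0.626 to 0.752, with adjusted p = 1.9e-16 by Fisher's exact test). The contrast with forskolin-only regions gave 1.06 (0.955 to 1.17, adjusted p = 0.301 by Fisher's exact test). With a vehicle library left out it gave 1.54 without replicate 1 and 1.35 without replicate 2, and the GC box 3.69 and 4.56 and ETS 5.68 and 8.43. Of the 3419 regions, 811 (23.7%) held none of the 7 motifs, and 2201 (64.4%) held neither a CRE core nor an AP-1 match.

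**Figure D3:**
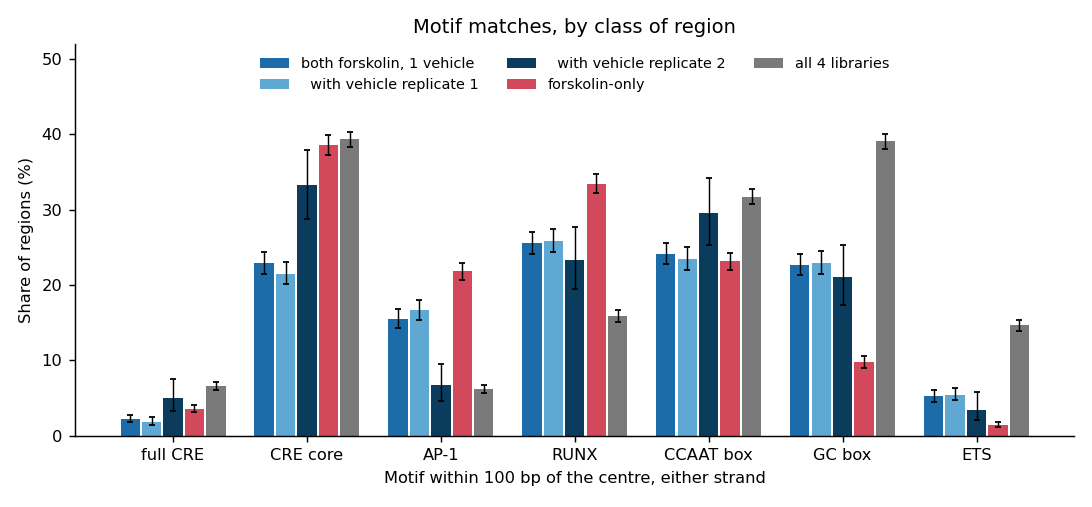
Share of regions (%) with each motif within 100 bp of the centre on either strand, with Wilson 95% intervals, for the whole class, its regions called in each vehicle replicate, and the 2 neighbouring classes. For the CRE core the class stands at 22.9%, below both neighbours, and its regions of vehicle replicate 2 at 33.3%.

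The class was not uniform, because regions called in vehicle replicate 1 and in vehicle replicate 2 differed in their motifs. Each group rests on 1 vehicle list, of 14686 and 10180 peaks. The tests between them again treat regions as independent and carry no error between cultures. The CRE core was present in 649 of 3016 regions of vehicle replicate 1 (21.5%, 20.1 to 23.0) and in 134 of 403 regions of vehicle replicate 2 (33.3%, 28.8 to 38.0), an odds ratio of 0.551 (0.438 to 0.695, with adjusted p = 5.82e-07 by Fisher's exact test). The palindrome was present in 1.89% and 4.96% (odds ratio 0.369, 0.216 to 0.656, with adjusted p = 0.000616 by Fisher's exact test). AP-1 went the other way, with 16.7% (15.4 to 18.1) and 6.70% (4.65 to 9.57), an odds ratio of 2.79 (1.86 to 4.35, with adjusted p = 3.06e-08 by Fisher's exact test). CCAAT was present in 23.5% and 29.5% (odds ratio 0.732, 0.579 to 0.930, with adjusted p = 0.0116 by Fisher's exact test).

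Position did not separate these groups in the same way. Within 1 kb of a TSS were 32.2% (30.6 to 33.9) and 33.7% (29.3 to 38.5), an odds ratio of 0.934 (0.746 to 1.17, with adjusted p = 0.534 by Fisher's exact test). This value changed with the processing, to 1.37 (adjusted p = 0.0181) with peaks within 500 bp joined, in the opposite direction, and to 0.714 (adjusted p = 0.00135, Fisher's exact tests) with at least 50% of the shorter peak covered. Odds ratios for RUNX, the GC box and ETS were 1.15 (0.895 to 1.48), 1.11 (0.860 to 1.45) and 1.61 (0.920 to 3.04), and none passed the threshold. With only the top 50% of each list the AP-1 difference did not pass either (odds ratio 1.44, with adjusted p = 0.225 by Fisher's exact test). With each list cut to its 10180 highest scores, the palindrome and CCAAT differences did not pass (0.507, adjusted p = 0.0526, and 0.797, adjusted p = 0.21, Fisher's exact test). The AP-1 odds ratio was then 1.60 and passed the threshold. The groups also differ in rank, since the median percentile in forskolin replicate 2 was 36.4 for regions of vehicle replicate 1 and 50.5 for those of vehicle replicate 2. Within deciles of the lower forskolin percentile the odds ratio was 0.653 for the core and 2.93 for AP-1 by the Mantel-Haenszel method, and both passed the threshold.

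The shares differed in the same direction in each range of distance to a TSS, although some intervals overlapped. Within 1 kb, the core was present in 22.2% (19.7 to 24.9) of the regions of vehicle replicate 1 and 36.0% (28.4 to 44.4) of those of vehicle replicate 2. From 1 to 10 kb the shares were 21.9% and 28.9%, with overlapping intervals, and over 10 kb they were 21.0% (19.0 to 23.1) and 33.2% (26.8 to 40.2). AP-1 letters over 10 kb from a TSS were present in 23.3% (21.3 to 25.5) and 9.24% (5.85 to 14.3). From 1 to 10 kb they were present in 21.7% (18.3 to 25.5) and 9.64% (5.0 to 17.9). At promoters they were rare in both, at 3.70% (2.7 to 5.1) and 1.47% (0.40 to 5.2), with overlapping intervals.

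The CRE core was concentrated at the region centres in both groups. Regions of vehicle replicate 1 had 16.7 matches per 100 regions within 50 bp of the centre and 8.79 in the 2 outer windows from 400 to 500 bp, a density ratio of 3.77 per base. For vehicle replicate 2 the values were 30.8 and 9.93, a ratio of 6.14. The outer levels were thus close, and the groups differed at the centre. For AP-1 the ratios were 6.58 and 2.48, against 6.72 in forskolin-only regions and 3.02 in regions of all 4 libraries. The AP-1 ratio of vehicle replicate 2 rests on only 15 central and 12 outer matches, that of vehicle replicate 1 on 299 and 90.

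**Figure D4:**
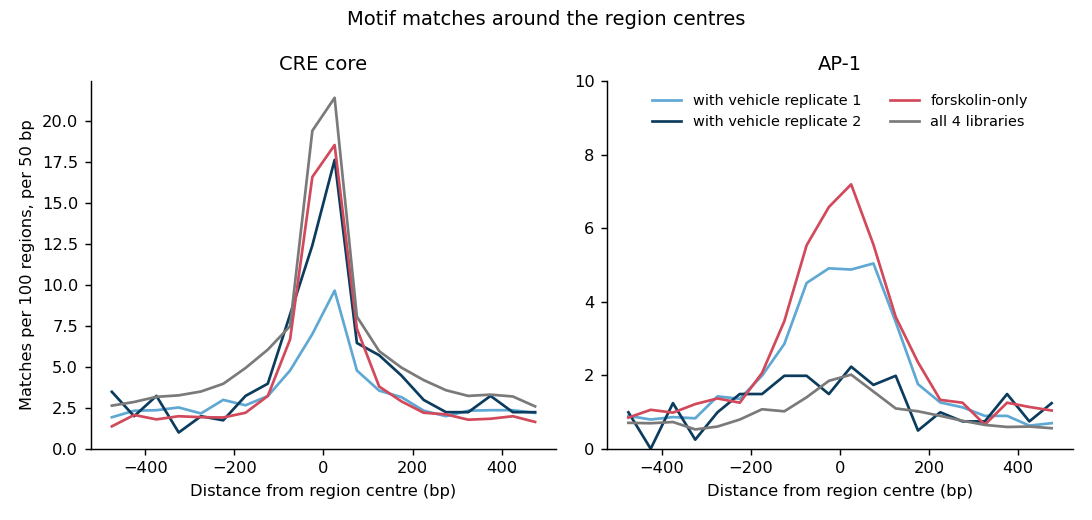
Matches per 100 regions in each 50 bp step (vertical axis) by distance from the region centre (bp), for the CRE core on the left and AP-1 on the right. Regions of vehicle replicate 2 peak at 17.6 core matches per 100 regions just right of the centre and those of vehicle replicate 1 at 9.65, while for AP-1 the line of vehicle replicate 1 lies above that of vehicle replicate 2 around the centre.

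Across the other combinations of libraries, the share with a core was lowest in regions of vehicle replicate 1 alone. Regions of vehicle replicate 1 alone held it in 6.71% (5.05 to 8.86, n = 671), those of vehicle replicate 1 and forskolin replicate 1 in 9.93% (8.49 to 11.6, n = 1430), those of vehicle replicate 2 and forskolin replicate 1 in 8.82% (n = 102), and those of vehicle replicate 2 alone in 15.0% (10.0 to 21.8, n = 140). Regions of a single forskolin library held it in 21.7% (20.7 to 22.8, forskolin replicate 1) and 19.7% (17.8 to 21.7, forskolin replicate 2). The 21.5% of the class in vehicle replicate 1 was therefore close to the share in regions of a single forskolin library. These shares are a description of the lists and were not tested against each other.

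Higher-ranked regions of the class held a CRE core more often. Grouped by the lower of the 2 forskolin percentiles, the core was present in 14.0% (12.2 to 16.1) of the class from 0 to 25, 17.5% (15.3 to 19.8) from 25 to 50, 30.8% (27.5 to 34.2) from 50 to 75, 50.7% (44.8 to 56.6) from 75 to 90 and 70.7% (59.6 to 79.8) above 90. Regions of all 4 libraries in the same ranges held it in 12.8%, 18.5%, 27.6%, 49.5% and 80.8%. Forskolin-only regions held it in 27.5%, 36.0%, 55.2%, 70.3% and 81.4%. The class therefore lay close to regions of all 4 libraries of like rank in the lower 4 ranges and below forskolin-only regions in all 5, with overlapping intervals in the highest.

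Within deciles of the lower forskolin percentile, the odds ratio of the core against regions of all 4 libraries was 1.09, where it had been 0.458 without strata, and that of the palindrome was 1.16, where it had been 0.324 (Mantel-Haenszel). Neither stratified value passed the threshold. Against forskolin-only regions the odds ratio of the core was 0.392 within these deciles. The AP-1 odds ratio within deciles was 0.648 against forskolin-only regions and 2.74 against regions of all 4 libraries, close to the values without strata. The share at promoters also kept its order, with odds ratios of 3.43 and 0.275 within deciles. In the class the share within 1 kb of a TSS was 39.2% (36.5 to 41.9) from 0 to 25 and 10.7% (5.51 to 19.7, n = 75) above 90, whereas in regions of all 4 libraries it was 53.7% (50.4 to 57.0) and 76.4% (74.3 to 78.4).

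**Figure D5:**
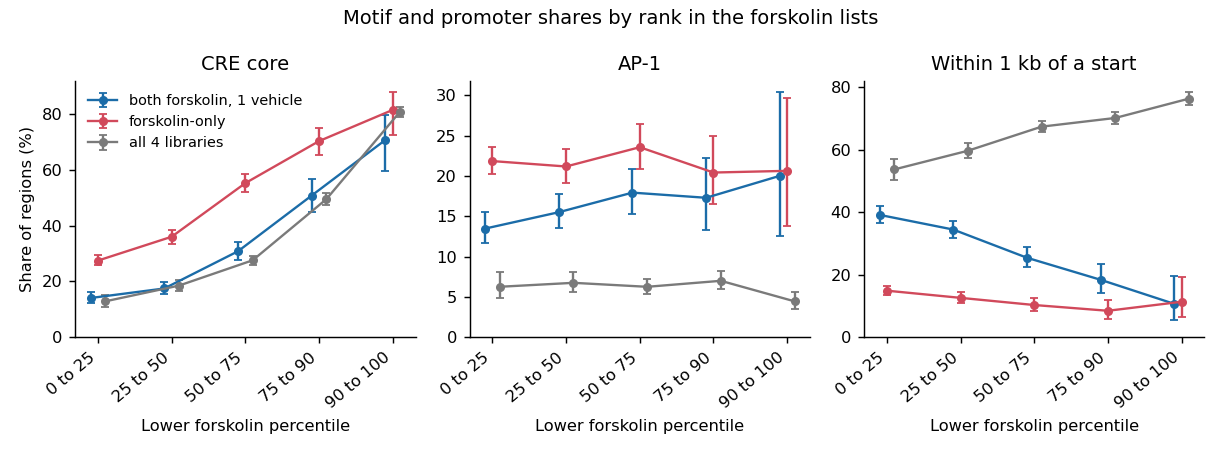
Share of regions (%) with a CRE core, with an AP-1 match and within 1 kb of a TSS, by range of the lower forskolin percentile, with Wilson 95% intervals. For the core, the class follows regions of all 4 libraries in the lower 4 ranges and forskolin-only regions stand higher, while for AP-1 and promoter position the class stays between the other 2 classes up to a percentile of 90.

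Genes near these regions included several early targets of cAMP signalling. A region of the class lay within 10 kb of a TSS for 2037 of the 12264 protein-coding genes that had a region of any class there (16.6%). Of the 44 genes listed as CREB and cAMP immediate targets, 41 had any bound region within 10 kb and 8 (19.5%) had one of this class: Nr4a2, Nr4a3, Per1, Dusp1, Dusp4, Cebpb, Klf4 and Arc. That share is near the 16.6% of all genes. Of the 41, 30 were also near regions shared by all 4 libraries, as were 8331 of the 12264 genes. The list count for the class was 5 with peaks within 500 bp joined, and 30 and 35 without vehicle replicates 1 and 2. Over all genes the counts in these settings were 2012, 8485 and 9468.

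Per1, a repressor of the circadian clock, had the region with a full CRE 2 bp from its centre that is shown above (chr11:68910548-68910872, intron, 1740 bp upstream of the nearest TSS). Its scores were 108.4 and 70.9 in the forskolin lists and 32.9 in vehicle replicate 1, with no peak in vehicle replicate 2. It was high in all 3 lists, at percentiles of 97.4, 96.1 and 91.2. Within 100 kb of Per1 there was 1 more region of the class, downstream (chr11:68924149-68924563), with scores of 20.3, 20.7 and 7.4 and none of the 7 motifs. It ranked in the upper middle of the forskolin lists, at 64.4 and 69.0, and low in the vehicle list, at 16.8.

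The orphan nuclear receptors of the Nr4a family are induced by cAMP in many cell types. Nr4a3 had a region 1634 bp upstream of a TSS (chr4:48056219-48056562, intergenic), with a CRE core and scores of 113.1 and 92.2 in the forskolin lists and 20.4 in vehicle replicate 2. It was the second of all regions of vehicle replicate 2 by its lower forskolin percentile, which was 97.7. Nr4a2 had one at 357 bp upstream (chr2:56976594-56976948, intergenic), with scores of 22.4, 23.4 and 6.7 in vehicle replicate 1 and a GC box as its only motif. Nr4a2 thus ranked in the upper middle of the forskolin lists (68.6 and 74.2) and low in the vehicle list (9.8), while Nr4a3 ranked near the top of the forskolin lists. Neither gene had a region of the class left when peaks within 500 bp were joined. Nr4a1 had 0 regions of the class within 10 kb and 1 within 100 kb, 42662 bp upstream (chr15:101054444-101054785), at percentiles of 38.3 and 36.4 in the forskolin lists and 21.9 in vehicle replicate 1.

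Dusp1 and Dusp4 encode phosphatases that switch off MAP kinases. Dusp1 had a region 272 bp upstream of its TSS (chr17:26645542-26645929) with scores of 40.6 and 38.6 in the forskolin lists and 12.5 in vehicle replicate 1, at percentiles of 86.0, 87.9 and 57.3, and none of the 7 motifs. It had 0 regions of the class with peaks within 500 bp joined. Dusp4 had one 274 bp upstream (chr8:35869903-35870250) with scores of 14.8, 6.2 and 12.3. Here the libraries disagreed, as the percentile was 49.9 in forskolin replicate 1, 3.0 in forskolin replicate 2 and 56.2 in vehicle replicate 1.

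Among transcription factors of the list, Klf4 had the promoter region with AP-1 letters shown above (chr4:55545678-55546005, 495 bp upstream), with scores of 38.9 and 35.1 in the forskolin lists and 12.3 in vehicle replicate 1. Cebpb, a regulator of adipocyte and osteoblast genes, had one 8810 bp upstream (chr2:167505413-167505796), annotated as an intron, with scores of 11.7, 11 and 6.3 and a CRE core. Arc, a cytoskeletal protein gene induced by activity in neurons, had one 95 bp upstream (chr15:74502908-74503281) with scores of 12.4, 15.1 and 10.9. Klf4 was in the upper part of both forskolin lists (85.1 and 86.0), whereas Cebpb (37.2 and 32.0) was below the class median in both. Arc was below it in forskolin replicate 1 (40.5) and above it in forskolin replicate 2 (53.3). Fos and Crem had 0 regions of the class within 100 kb, although each had regions of other classes within 10 kb. Without vehicle replicate 1 the counts for Dusp1, Dusp4, Klf4, Cebpb and Arc were 0, because vehicle replicate 1 holds their vehicle peak. Nr4a1, Nr4a2, Nr4a3 and Per1 then had 2 each, and without vehicle replicate 2 Nr4a1 had 2 and Nr4a2 and Per1 had 3. Without forskolin replicate 2, Arc had 2. With the top 50% of each list or with 10180 peaks in each, Nr4a2, Dusp4, Cebpb and Arc had 0. Per1 had 2 and Crem 1 with the top 50%, and Nr4a1 had 1 with 10180 peaks in each.

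Genes of the cAMP pathway itself were represented by 4 of the 30 with a region of any class (13.3%, against 16.6% of all genes). Prkar1a encodes a regulatory subunit of protein kinase A, Crebbp the coactivator CBP, Sik2 a kinase that restrains CREB coactivators, and Pde7a a phosphodiesterase that breaks down cAMP. The region of Prkar1a lay 4542 bp downstream in an intron (chr11:109531590-109532009) with scores of 29.8 and 20.7 in the forskolin lists and 7.8 in vehicle replicate 2. The others lay within 1 kb of a TSS and ranked lower, with forskolin scores from 10.3 to 15.5 and vehicle scores from 8.4 to 9.0 in vehicle replicate 1. Crebbp and Pde7a held a CRE core. Without vehicle replicate 1 or 2 the count was 20 or 23, and without forskolin replicate 2 it was 7. Over all genes the counts were then 8485, 9468 and 2834, against 2037 with all 4 libraries.

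Of the 25 parathyroid hormone-responsive genes with a region, 4 (16.0%) had one of this class, near the 16.6% of all genes. Tnfrsf11b, which encodes osteoprotegerin, the decoy receptor of RANKL, had a region 238 bp upstream of its TSS (chr15:54110023-54110531) with RUNX letters and scores of 9.1, 9.6 and 9.3 in the forskolin lists and vehicle replicate 1. All 3 peaks were in the lower part of their lists, at percentiles of 21.8, 22.2 and 35.6, the last in vehicle replicate 1. Vdr, the vitamin D receptor, had one in an intron 9096 bp downstream (chr15:97717982-97718313), with scores of 22.7, 15.8 and 7.2. Hdac5, a histone deacetylase, had one in an intron 2198 bp downstream (chr11:102077868-102078220) with scores of 58.2, 22.7 and 10.4, and it held both a CRE core and AP-1 letters. Adamts1, a secreted protease, had one 155 bp upstream (chr16:85803343-85803683) with scores of 21.7 and 20, and 13.9 in vehicle replicate 2. Without vehicle replicate 1 or 2 the count was 13, and over all genes it was then 8485 or 9468. Tnfsf11, which encodes RANKL, and Sost, which encodes sclerostin, had 0 regions of the class within 100 kb, and Mmp13, a collagenase of bone, had 1, 29558 bp upstream (chr9:7242775-7243137) with RUNX letters and scores of 26.5, 15.1 and 12.1.

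Osteoblast genes were represented by 4 of 22 (18.2%), near the 16.6% of all genes. Ibsp, encoding bone sialoprotein, had a region 25 bp downstream of its TSS (chr5:104728042-104728387) with a CRE core and a CCAAT box, and with scores of 18.1 and 24.8 in the forskolin lists and 6.3 in vehicle replicate 2. It ranked at 59.5 and 76.3 under forskolin and at 6.7 in the vehicle list. Sparc, encoding osteonectin, had 2 regions, at 3961 bp upstream (chr11:55219455-55219801, intron, scores 63.0, 26.2 and 10.2) and 8333 bp upstream (chr11:55241650-55242179, intergenic, scores 18.1, 19.3 and 15.3), both called in vehicle replicate 1. The first held a CRE core and AP-1 letters, and the second none of the 7 motifs. Twist1, an inhibitor of Runx2, had one 4748 bp downstream (chr12:34647077-34647490) with scores of 31.3 and 20.7 in the forskolin lists and 4.3, near the bottom of the list, in vehicle replicate 2. Dlx3, a homeobox factor, had one 6588 bp downstream (chr11:94987783-94988198) with scores of 10.0, 8.9 and 5.6. Without vehicle replicate 1 the count was 8, and it was 7 without vehicle replicate 2 or forskolin replicate 2. Over all genes the counts were then 8485, 9468 and 2834. Runx2 had 0 regions of the class within 100 kb.

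The remaining lists add few members. Beside the 16.6% of all genes, clock genes were represented by 3 of 13 (23.1%, Clock, Per1 and Bhlhe41) and housekeeping targets of CREB by 2 of 24 (8.33%, Sdha and Atp5b). Of these 24, 21 lay near regions shared by all 4 libraries, against 8331 of the 12264 genes with any region. Without vehicle replicates 1 and 2 the counts for the class were 12 and 13 for clock genes and 21 and 22 for housekeeping genes. Without forskolin replicate 2 the housekeeping count was 6. Over all genes the counts were 8485 and 9468 without vehicle replicates 1 and 2, and 2834 without forskolin replicate 2. Markers of other cell types gave 1 gene with a region of the class. It was among the 6 chondrocyte genes with any region, while none was found for 2 adipocyte genes, 1 muscle gene and 4 blood or osteoclast genes. With a library left out, these counts were between 0 and 3, and those over all genes between 2183 and 9468. The chondrocyte gene was Col2a1, the collagen of cartilage, whose intronic region (chr15:97828425-97828751) had scores of 63.7 and 30.3 in the forskolin lists and 8.8 in vehicle replicate 1. Any bound region within 10 kb was found for 22 of 28 osteoblast genes, 2 of 10 adipocyte genes and 6 of 10 chondrocyte genes. It was found for 1 of 10 muscle genes and 4 of the 9 annotated blood or osteoclast genes. Over all annotated protein-coding genes it was found for 12264 of 22225. These counts were not tested. Peaks are not expression, so the identity of the cells was checked no further.

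At promoters, the 10 highest-ranked regions lay at AF064781, Dclk1, Susd1, Pabpc1, Trim39, Hist2h2bb, Il2rb, Camsap2, Uspl1 and Mfsd11. Of these, 7 held a CRE core, and 8 had their vehicle peak in replicate 1. In the class, 70.7% of regions above the 90th percentile in both forskolin lists held a core. The vehicle peak was in replicate 1 for 88.2% of the whole class. That of Dclk1, a microtubule-associated kinase, lay 102 bp downstream of a TSS (chr3:55265627-55265937, untranslated region) with scores of 140.3 and 79.9 in the forskolin lists and 7.7 in vehicle replicate 1. That of Il2rb, a subunit of the interleukin 2 receptor, lay 45 bp upstream of a TSS (chr15:78324073-78324389), with a CRE core, AP-1 letters and scores of 51.8, 60.6 and 5.1, the last at a percentile of 1.1. Both were near the top of the forskolin lists and low in the vehicle list. Pabpc1 differed, since its region (chr15:36538619-36538967, 65 bp upstream) was high in all 3 lists, with scores of 78.8, 57.8 and 41.1 and percentiles of 95.1, 94.1 and 94.0. Uspl1 (92.6) and Mfsd11 (87.3) also ranked high in vehicle replicate 1, and Hist2h2bb, a histone gene, in vehicle replicate 2 (85.9).

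Over 10 kb from a TSS, the highest-ranked region was nearest to Lsamp, which encodes a neural adhesion molecule (chr16:42178493-42178932). Its scores were 356.8 and 179.7 in the forskolin lists and 5.8 in vehicle replicate 1, at percentiles of 100.0, 99.7 and 3.5. The vehicle peak shared 172 bp with the forskolin peaks, under the median of 278 bp, and none of the 7 motifs was present. Next came regions nearest to Ostf1 (scores 171.4, 128.7 and 10.2), Ramp3 (204.3, 126.0 and 8.6) and Dtwd1 (201.7, 123.2 and 15.5), all with vehicle replicate 1. Ramp3 encodes a partner protein of calcitonin-family receptors, and its region (chr11:6595238-6595553, intergenic) held a CRE core and AP-1 letters. The other 6 were nearest to Mosc1, Scarb1, Tpst1, Pgpep1l, Tmsb10 and Dap. Of the 10 regions 7 held a CRE core, beside 70.7% of the class above the 90th percentile in both forskolin lists.

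In vehicle replicate 2 the 5 highest-ranked regions were those of Mosc1, Nr4a3, Tpst1, Pgpep1l and Tmsb10, and all 5 held a CRE core. Of all 15 regions of vehicle replicate 2 above the 90th percentile in both forskolin lists, 13 held one (86.7%). The region near Tmsb10 (chr6:72962924-72963241), with a core, AP-1 and RUNX letters, had scores of 96.9 and 79.2 in the forskolin lists and 5.8 in vehicle replicate 2. Tpst1, a tyrosylprotein sulfotransferase gene, had 4 regions of the class within 10 kb of its transcription start sites, as had Iqsec1, the most of any gene. In all, 161 genes had 2 or more and 13 had 3 or more.

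The largest gaps between forskolin and vehicle percentiles were at Lsamp, B4galt1, Tmsb10, Arhgef2 and Ets1. B4galt1 encodes a galactosyltransferase, and its region (chr4:40784635-40784960, intron) had scores of 81.6 and 64.7 in the forskolin lists and 5.1 in vehicle replicate 1. Ets1, a transcription factor of the ETS family, had its region 93420 bp downstream (chr9:32596879-32597214), with scores of 76.6, 66.8 and 6.1 in vehicle replicate 2. Except at Lsamp, these regions held a CRE core and RUNX letters. Above the 90th percentile in both forskolin lists, 70.7% of the class held a core and 29.3% held RUNX letters. At the opposite end, the vehicle percentile lay farthest above both forskolin percentiles at Ctgf, Suclg2, Bri3, Epha7 and Tle6, all in vehicle replicate 1. Ctgf, which encodes a matrix protein of connective tissue, had its region 57 bp downstream of a TSS (chr10:24315408-24315877) with a CRE core and scores of 9.5 and 8.9 in the forskolin lists and 13.0 in vehicle replicate 1, at percentiles of 25.0, 17.1 and 59.5. All 5 had forskolin scores of 11 or less, and 3 of them lay within 1 kb of a TSS, beside 32.4% of the class. Of the class, 88.2% had its vehicle peak in replicate 1.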

How the data were processed

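Phospho-CREB chromatin immunoprecipitation libraries (4, in 2 groups taken from the titles) were used as the authors' deposited peak lists, called per library. Per the submitters' processing notes, Bowtie and HOMER were used with build mm9. Versions and calling thresholds: not given in the sources used here. Peak scores are the authors' deposited values on an unstated scale, and each score served to rank peaks of the same list. Depth is unknown, so intervals cover counting error only.

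Peaks sharing 1 bp were merged. Positions used GENCODE M1 on NCBIM37, the assembly of mm9, and every region fitted its chromosome. The 7 motifs were looked for on either strand up to 100 bp from each centre. Shares have Wilson 95% intervals. Shares were tested by Fisher's exact test (two-sided), Benjamini-Hochberg adjusted over 24 tests, threshold 0.05. Alternatives changed overlap, list length, libraries, windows and strata.

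The region class, gene lists and tests were chosen with earlier results of these data known. Named genes were all cAMP immediate targets with such a region within 10 kb, the 10 highest-ranked regions within 1 kb and beyond 10 kb, the 5 highest of vehicle replicate 2, the 5 largest percentile gaps in each direction, other list members and 8 set genes. Merging, classing and motif searches were tested on simulated data. Python 3.11.15, numpy 2.4.6, scipy 1.17.1, statsmodels 0.14.6 and matplotlib 3.10.9 were used.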

Additional observations from a re-analysis of the deposited data

How the results depend on the processing

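No paired analysis was possible because the classes come from a rule over peak lists, with no fit over samples. The contrasts with regions of all 4 libraries and between the vehicle replicates have no value when a vehicle library is left out. Depth is unknown, so its effect on which peaks were called was not tested.

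Over the settings that leave out a library, the class held 3602 to 11916 regions, its share in vehicle replicate 1 ran from 86.31% to 89.62%, and median percentiles ran from 45.46 to 76.65 (forskolin replicate 1), 36.36 to 70.39 (forskolin replicate 2) and 24.28 to 57.26 (vehicle). Genes with a region ran from 2183 to 9468, and from 8 to 35 in the cAMP target list. Odds ratios against forskolin-only regions ran from 0.586 to 2.32 for the full CRE, 0.551 to 1.35 for the core and 1.01 to 1.54 for CCAAT. The high ends come without a vehicle library, when regions of all 4 libraries enter the class and those of the omitted library become forskolin-only.

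With the top 50% of each list there were 1563 regions, 84.07% in vehicle replicate 1, with median percentiles of 73.96, 67.47 and 63.49. With the 10180 top peaks of each list there were 875, 49.6% in vehicle replicate 1, with medians of 78.48, 71.82 and 41.62, and 513 genes. Against forskolin-only regions the odds ratio was then 0.939 for the full CRE and 0.869 for RUNX, neither past the threshold. The share in vehicle replicate 1 was 85.6% with at least 50% of the shorter peak covered (median in forskolin replicate 1 54.52) and 90.11% with peaks within 500 bp joined (5 cAMP targets). Windows of 1 kb and 100 kb gave 1201 and 7864 genes and 5 and 20 cAMP targets.

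Between the vehicle replicates, odds ratios whose side or direction changed were as follows. For position they were 0.714 with 50% covered, 1.37 with joined peaks, 1.37 with the top 50% and 0.707 within GC deciles. For the GC box they were 0.939 with 50% covered, 1.35 with joined peaks, 0.990 with a motif window of 50 bp and 0.899 within GC deciles. For ETS they were 0.997 with 50% covered, 2.33 with joined peaks and 0.942 with equal lists. For RUNX they were 0.912 with joined peaks, 0.895 with the top 50% and 0.983 with equal lists. AP-1 was 1.44 with the top 50%, and the full CRE 0.507 and CCAAT 0.797 with equal lists.

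Against regions of all 4 libraries, strata of forskolin percentile turned the core to 1.09 and the full CRE to 1.16, and strata of TSS distance took RUNX to 1.08. Strata of GC content, and of TSS distance and forskolin percentile together, were chosen after seeing the data. The former gave 1.15 for CCAAT against forskolin-only regions. The latter gave 1.03 for the full CRE, 1.14 for the core (past the threshold) and 0.920 for the GC box against regions of all 4 libraries. Apart from the settings that change the class itself, the cause was not tested.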
